A study of Mus musculus with 87 samples.

Results

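In mouse embryonic stem cells, 53 Ensembl gene IDs of the 55450 counted had low RNA levels in every line that lacked the 3 Polycomb-like genes (Pcl1-3). They were chosen from the counts themselves. Each count was divided by the library's total over all IDs and scaled to a total of 1000000 (CPM), and the 3 libraries of a genotype were averaged. An ID was taken when its wild-type (WT) mean was at least 2 CPM, its mean in each of the 5 Pcl1-3 knockout (KO) genotypes was at most 0.5 times WT, and its mean without Jarid2 and Aebp2 but with Pcl1-3 present was at least 0.7 times WT. The rule used these 7 genotypes, so their differences from WT are described below and not tested. The Suz12 KO was not used by the rule.

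Polycomb repressive complex 2 (PRC2) methylates histone H3 on lysine 27 and is known in embryonic stem cells for keeping genes of later development silent. SUZ12 belongs to its core, which carries the methyltransferase. The accessory subunits join that core in alternative forms: a Polycomb-like protein (PCL1, PCL2 or PCL3, from the genes Phf1, Mtf2 and Phf19), alone or with EPOP, marks the form called PRC2.1, while JARID2 and AEBP2 mark PRC2.2. Loss of a repressor is usually followed through the genes that gain RNA, and the 53 IDs are on the opposite side, with less RNA in every Pcl1-3 knockout.

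The series is about how accessory subunits guide PRC2 to its sites, and RNA was sequenced in 24 of its 87 samples, 3 libraries for each of 8 genotypes. Besides WT there were Jarid2 + Aebp2 KO, Suz12 KO and 5 genotypes without Pcl1-3. The first of these was Pcl1-3 KO itself. The others lacked Epop in addition (Pcl1-3 + Epop KO), Jarid2 (Pcl1-3 + Jarid2 KO), Jarid2 with Aebp2 (Pcl1-3 + Jarid2 + Aebp2 KO), or all of these genes (Pcl1-3 + Jarid2 + Aebp2 + Epop KO, called the full accessory knockout below). All cells were cultured in 2i medium, which contains a pair of kinase inhibitors, on gelatin, and total RNA went into TruSeq libraries. The strain is given as 129B6F1 for WT, 129B6F2 for Suz12 KO, 129B6F3 for Pcl1-3 KO and so on to 129B6F8 for the full accessory knockout, so strain as labelled and genotype cannot be told apart. Nothing in the labels tells whether the 3 libraries of a genotype were grown apart or came from different clones. The p-values therefore reflect the scatter among these libraries alone, and that scatter may be technical. Nor do the labels say whether the 5 Pcl1-3 genotypes descend from 1 Pcl1-3 KO clone. If they do, what that clone carried by chance and the loss of the Polycomb-like genes cannot be told apart for any of the 53 IDs.

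Total counts ran from 10148155 to 28442061 per library, and 24056 IDs had no count in any library. The sources used here do not pair the IDs with gene symbols or positions (0 of 55450 were paired), so a few IDs are named, and their functions, promoters, sequences and nearby PRC2 peaks are not described. Whether the targeted genes or markers of another cell type are among the 53 was not analysed here. CPM are not corrected for gene length, so levels are compared between libraries and not between IDs.

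The 53 IDs were a small share of what the lines expressed. Of 11313 IDs with at least 2 CPM in WT, 3.13% were at or below 0.5 times WT in Pcl1-3 KO, 2.85% in Pcl1-3 + Epop KO, 4.12% in Pcl1-3 + Jarid2 KO, 4.46% in Pcl1-3 + Jarid2 + Aebp2 KO and 6.72% in the full accessory knockout. Of the same 11313 IDs, 170 were this low in all 5 genotypes together, and 58 were at 2 times WT or more in all 5. The bound of 2 CPM in WT leaves out IDs that were low in WT and rose, so the 2 counts are not compared. The bound on Jarid2 + Aebp2 KO then removed 117 of the 170, whose median there was 0.432 times WT, and left 53. Most IDs that were low in every Pcl1-3 knockout were therefore also under 0.7 times WT in a line that kept the Polycomb-like genes.

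The WT means of the 53 IDs ran from 2.02 to 484 CPM with a median of 9.02, and 17 lay under 5 CPM. Their WT libraries varied by a median coefficient of variation of 17.7%, and by 50.1% at most. Together they made up 0.192%, 0.170% and 0.168% of the counts of WT replicates 1, 2 and 3. In 51 of the 53, all 15 Pcl1-3 knockout libraries lay below all 3 WT libraries, which was true of 4.66% of the 11313 IDs; the rule chose for this, so nothing is read from it. The other 2, named after their values were seen, were ENSMUSG00000004341.8 and ENSMUSG00000090071.4. In both, only Pcl1-3 + Epop KO replicate 3 passed the lowest WT library, at 4.81 against 3.75 CPM and at 1.89 against 1.87 CPM.

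**Figure D1:**
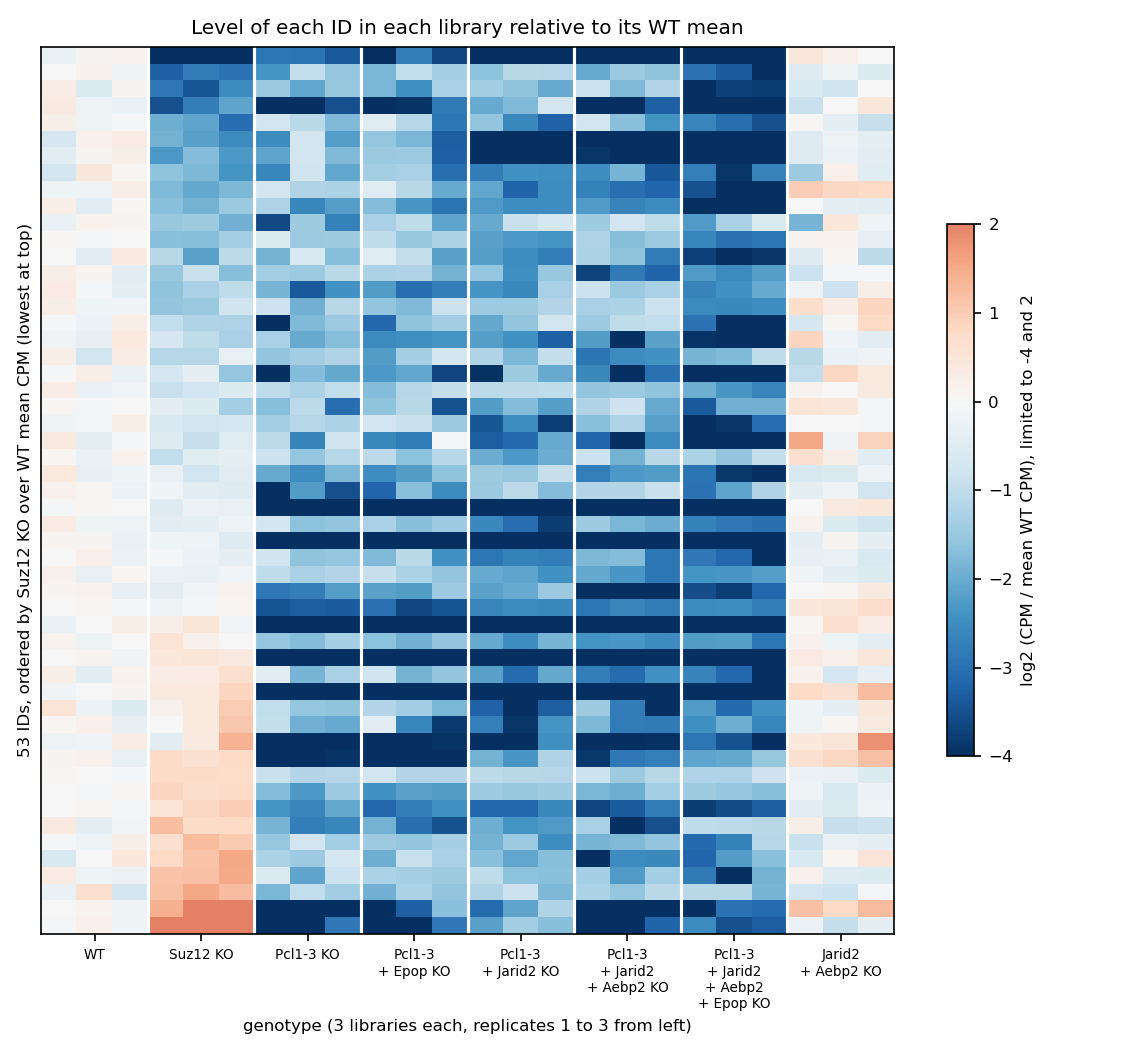
Levels of the 53 IDs (rows, ordered by their mean in Suz12 KO over WT) in the 24 libraries (columns, 3 per genotype), as log2 of CPM over the mean WT CPM with colours limited to -4 and 2. The 15 Pcl1-3 knockout columns are blue in nearly every row, as the rule requires, while the Suz12 KO columns run from blue at the top to red at the bottom.

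The bound itself fell within a continuous run of values. The ID nearest inside it, ENSMUSG00000022754.6, reached 0.494 times WT in its highest Pcl1-3 genotype, and the next 2 reached 0.491 and 0.487. The nearest outside, ENSMUSG00000045333.15, was at 0.503 times WT in Pcl1-3 KO and between 0.617 and 1.56 CPM in the other 4 Pcl1-3 genotypes, from 4.99 CPM in WT. Of the members 15 had their highest ratio between 0.45 and 0.5, and 10 IDs that met the other conditions had it between 0.5 and 0.55. Across the list, the highest ratio over the 5 genotypes was over 0.4 for 29 IDs, between 0.25 and 0.5 for 43, between 0.1 and 0.25 for 4, and at most 0.1 for 6.

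The 6 IDs at the low end had at most 0.1 times WT in every Pcl1-3 genotype, and 3 of them are described here. ENSMUSG00000068457.14 had 27.7, 27.6 and 21.3 CPM in the WT libraries, 871 counts in all, and 0 counts in all 15 Pcl1-3 knockout libraries. Set against a floor of 3 counts over a genotype, it was at least 309-fold lower in the full accessory knockout and at least 449.5-fold lower in Pcl1-3 KO, the most deeply sequenced of the 5. The same ID had 22.8, 22.3 and 18.0 CPM in Suz12 KO and 19.97, 27.7 and 19.6 CPM in Jarid2 + Aebp2 KO, where each group overlapped WT. Floors and counting intervals cover counting error only.

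ENSMUSG00000069045.11 followed the same course, with 60.0, 63.3 and 53.7 CPM in WT, which was 2029 counts. It had 1 count in all in Pcl1-3 KO, 1 in Pcl1-3 + Epop KO, 2 in Pcl1-3 + Jarid2 KO, 1 in Pcl1-3 + Jarid2 + Aebp2 KO and 0 in the full accessory knockout, at least 720-fold lower there. In Suz12 KO it had 78.9, 81.8 and 75.03 CPM and in Jarid2 + Aebp2 KO 74.0, 68.3 and 81.1 CPM, all above the WT libraries. ENSMUSG00000029267.17, another of the 6, was low but not absent in the Pcl1-3 knockouts. It had 320.8, 359 and 334 CPM in WT, and its 15 Pcl1-3 knockout libraries lay between 8.11 and 17.6 CPM. Its means were 266 ± 25.5 CPM in Suz12 KO and 412 ± 64.8 CPM in Jarid2 + Aebp2 KO (SD, n = 3). These 3 IDs were thus far lower in each Pcl1-3 genotype than in WT, and not in Suz12 KO. Whether such IDs are the targeted genes themselves, or lie together on a chromosome, was not tested. If the 5 genotypes share a parental clone, a loss in that clone and the absence of the Polycomb-like proteins cannot be told apart here. In bulk RNA, fewer cells with a transcript and less of it per cell cannot be told apart either.

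The ID with the most counts in WT, ENSMUSG00000030246.11, shows the commoner course, a partial drop. It had 583, 428 and 439 CPM in WT and means of 209 CPM in Pcl1-3 KO, 190.0 in Pcl1-3 + Epop KO, 190.4 in Pcl1-3 + Jarid2 KO and 221 in Pcl1-3 + Jarid2 + Aebp2 KO. In the full accessory knockout its libraries stood at 82.8, 80.7 and 86.5 CPM, below all others. In Jarid2 + Aebp2 KO they stood at 786, 596 and 883 CPM, above all 3 WT libraries.

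Over the list, the median ratio to WT was 0.327 in Pcl1-3 KO, 0.294 in Pcl1-3 + Epop KO, 0.221 in Pcl1-3 + Jarid2 KO, 0.184 in Pcl1-3 + Jarid2 + Aebp2 KO and 0.120 in the full accessory knockout. The median of all 11313 IDs was between 0.962 and 1.03 in each of the 7 knockouts. The full accessory knockout was the lowest genotype for 28 of the 53 and was below Pcl1-3 KO for 39. The bound of 0.5 times WT limits how high a member can be in these genotypes, and nothing limits how low, so a lower median is the direction in which the list could move.

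**Figure D2:**
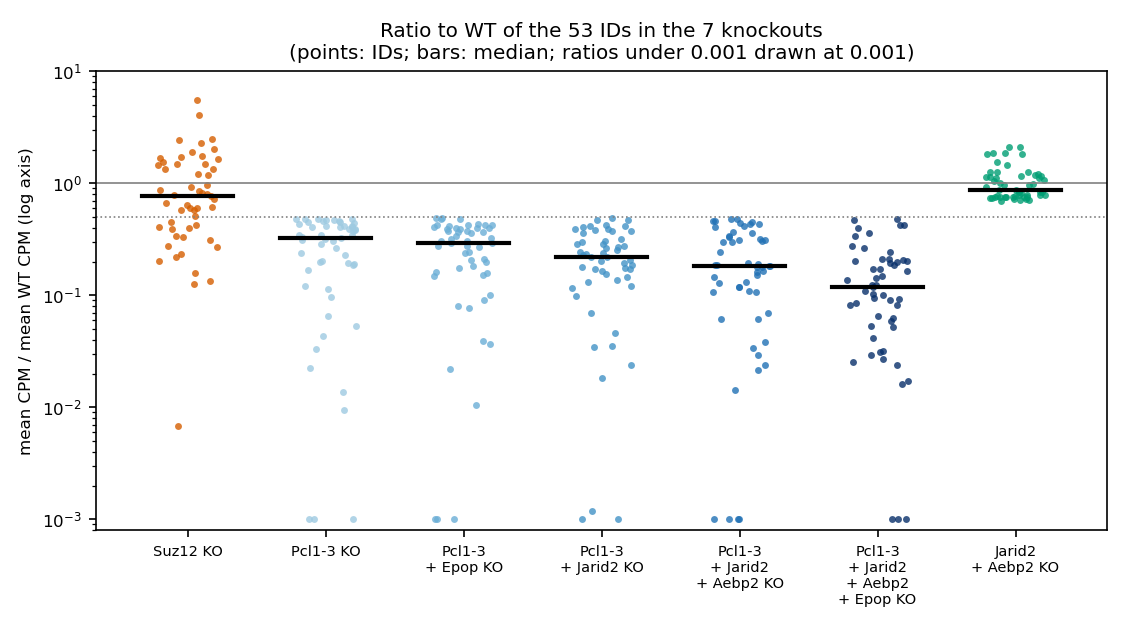
Mean CPM over mean WT CPM (log axis) of the 53 IDs in the 7 knockouts, each point an ID and each bar the median, with ratios under 0.001 drawn at 0.001. The medians step from 0.327 in Pcl1-3 KO to 0.120 in the full accessory knockout below the dotted bound of 0.5, while Suz12 KO spreads from 0.00681 to 5.55.

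Where JARID2 and AEBP2 were missing but the Polycomb-like genes were present, the 53 IDs had a median of 0.880 times WT and a range of 0.702 to 2.12, the lower end being set by the rule. Above WT stood 22 of the 53, and 7 were at 1.5 times WT or more. At 2 times WT or more stood 2, against 1.42% of the 11313 IDs: ENSMUSG00000054727.2 at 12.8 ± 2.17 CPM and, named after its values were seen, ENSMUSG00000067764.11 at 5.47 ± 3.28 CPM (SD, n = 3). Close to the bound, 8 members had a ratio between 0.7 and 0.75, and 8 IDs that met the other conditions had one between 0.65 and 0.7.

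Suz12 KO, which takes away the core of the complex, was compared with WT to see how the same IDs behaved when all PRC2 was lost. They did not follow 1 course: some fell, some rose and others did not pass the test. With edgeR's quasi-likelihood test over the 14650 IDs that passed its filter on low counts, all 53 among them, 21 were lower at a Benjamini-Hochberg adjusted p under 0.05, beside 18.3% of all IDs tested. Higher were 9, beside 20.7% of all IDs tested, and 23 did not pass. With the replicate number as a block, 27 were lower, 12 were higher and 14 did not pass. The shares of all IDs tested, here and below, are from the fit without the block. None is given for the fit with it, so its counts are not set against a share. Without the block, 39.6% of the 53 were lower and 17% higher, and 56.6% passed in either direction, beside 39.1% of all IDs tested. The median log2 fold change was -0.50 for the 53 and -0.02 for all IDs tested. The rule picked IDs that were high in these WT libraries, which favours lower values in any group set against them. With Jarid2 + Aebp2 KO in place of WT, 24 were lower and 9 higher, beside 22.3% and 24.1% of all IDs tested, though the rule also held that genotype high.

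On the plain CPM scale, 17 of the 53 were at or below 0.5 times WT in Suz12 KO, beside 3.24% of the 11313 IDs, and 6 were at 2 times WT or more, beside 7.43%. In 25 the Suz12 KO libraries all lay below the WT libraries (23.3% of the 11313 IDs), in 14 they all lay above (31.2%), and in 14 they overlapped. Against the 15 Pcl1-3 knockout libraries, which the rule held low, the 3 Suz12 KO libraries lay above all of them in 31 IDs, beside 14.3% of the 11313, overlapped them in 22 and lay below all of them in 0, beside 8.70%. The rule holds down the Pcl1-3 libraries, so nothing is read from these counts.

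**Figure D3:**
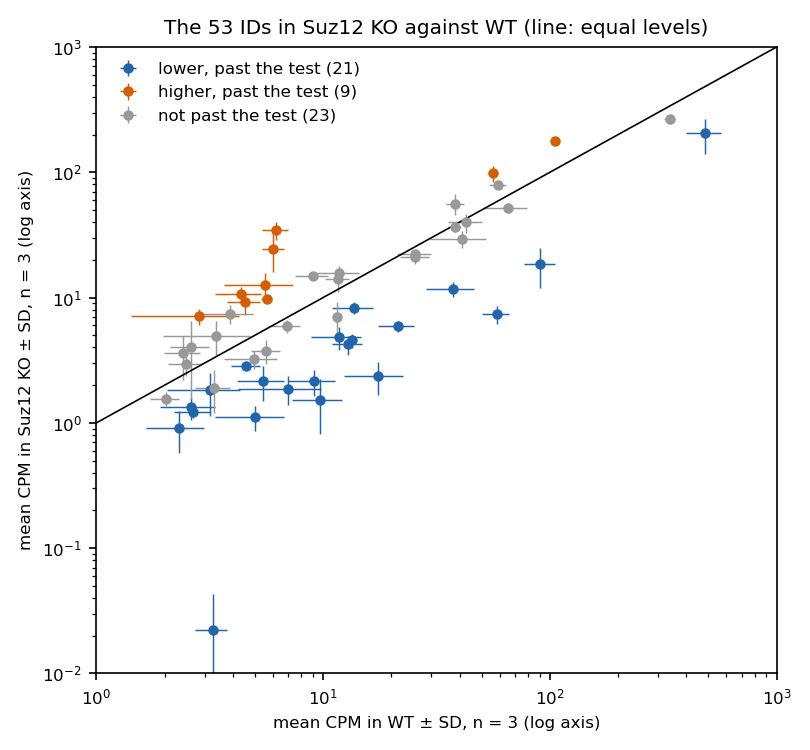
Mean CPM of the 53 IDs in Suz12 KO against WT on log axes, with SD as bars (n = 3) and the line of equal levels; colours give the result of edgeR's quasi-likelihood test. The 21 lower IDs lie under the line, with 1 far below the others at 0.0222 CPM, and the 9 higher IDs lie over it.

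Of the IDs that fell in Suz12 KO, ENSMUSG00000107634.1 went furthest. It had 2.65, 3.55 and 3.56 CPM in WT and 0, 0 and 0.0665 CPM in Suz12 KO, which was 114 counts against 1 count. WT was 146 times higher with an exact 95% counting interval of 25.7 to 5809, and the edgeR adjusted p was 2.1e-07. It was low in the Pcl1-3 lines too, at a mean of 0.395 CPM in Pcl1-3 KO and 0.0554 CPM in the full accessory knockout, and not in Jarid2 + Aebp2 KO, at 3.81 CPM.

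ENSMUSG00000075023.11 had 58.4, 66.2 and 50.1 CPM in WT and 6.04, 8.35 and 7.58 CPM in Suz12 KO. The groups did not overlap, and the log2 fold change was -3.12 ± 0.31 (SE; edgeR adjusted p = 1.78e-07). Its Pcl1-3 KO libraries lay between, at 11.2, 29.6 and 19.9 CPM, while those of the full accessory knockout, at 7.51, 5.76 and 3.07 CPM, reached the Suz12 KO range.

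The 2 IDs that rose most in Suz12 KO moved away from the Pcl1-3 lines. ENSMUSG00000025038.7 had 5.97, 7.10 and 5.48 CPM in WT and 30.4, 31.8 and 40.8 CPM in Suz12 KO, a log2 fold change of 2.34 ± 0.32 (SE; edgeR adjusted p = 9.2e-06). In the 15 Pcl1-3 knockout libraries it stood between 0.0885 and 2.38 CPM, so that the 3 kinds of line did not overlap.

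ENSMUSG00000054727.2 had 6.07, 6.70 and 5.34 CPM in WT and 16.0, 24.5 and 32.7 CPM in Suz12 KO, with no overlap. The log2 fold change was 1.88 ± 0.40 (SE; edgeR adjusted p = 0.000718). With Jarid2 + Aebp2 KO as the reference, where its libraries were at 13.5, 10.4 and 14.5 CPM, the call ended (log2 fold change 0.82, adjusted p = 0.0792, from 1.16e-10 to 0.0792 over 12 alternatives).

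By the fit without the block, the 21 IDs that fell without Suz12 had a median of 0.329 times WT there and 0.0818 times WT in the full accessory knockout. The 9 that rose had medians of 2.28 and 0.212, and the 23 that did not pass had 0.930 and 0.110. In Pcl1-3 KO the 3 groups had medians of 0.348, 0.389 and 0.195 times WT.

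The remaining comparisons followed the Pcl1-3 lines as a further subunit was lost. The rule used these same libraries. It held both sides of each comparison to the same bound and set no condition on the difference between them. A rise is limited by the bound and a fall is not, so nothing is read from the direction of the changes. The comparisons that add Jarid2 loss and Aebp2 loss share the Pcl1-3 + Jarid2 KO libraries. Those that add Aebp2 loss and the later Epop loss (called the second below, since Epop was also removed from Pcl1-3 KO) share the Pcl1-3 + Jarid2 + Aebp2 KO libraries. Opposite changes in consecutive comparisons therefore cannot be told apart from a shift of the shared libraries. In at least 1 of the 4 comparisons 25 of the 53 passed the test without the block, beside 15.7% of all IDs tested, and 28 passed in none. The 28 include 4 IDs with under 20 counts over the 15 Pcl1-3 knockout libraries, too few to show most changes. Among these 4, ENSMUSG00000068457.14 had 0 counts on both sides and could not pass.

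Removing Epop as well as Pcl1-3 was not followed by a change past the test in any of the 53. They include the 4 IDs with few counts given above. With edgeR's quasi-likelihood test 0 passed at an adjusted p under 0.05, beside 0.00683% of all IDs tested, and 2 were lower and 2 higher at an unadjusted p under 0.05. DESeq2 also gave 0. The largest fitted change, which did not pass, was that of ENSMUSG00000054727.2. It rose from 6 to 33 counts, at 2.94 ± 0.77 on the log2 scale (SE). The median log2 fold change of the 53 was -0.07, against 0.01 for all IDs tested.

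Removing Jarid2 as well as Pcl1-3 was followed by changes in both directions. Of the 53, 10 fell and 6 rose, beside 2.56% and 3.71% of all IDs tested and 6.27% in either direction (edgeR quasi-likelihood test, adjusted p under 0.05). With the replicate number as a block 14 fell and 8 rose, with no share of all IDs given for that fit. Without the block, the median log2 fold change was -0.14, or -0.37 over the 49 IDs with 20 or more counts in the Pcl1-3 knockouts. ENSMUSG00000104340.1 had 3.13, 5.62 and 6.34 CPM in WT, then 0.885, 2.99 and 1.09 CPM in Pcl1-3 KO and 0.144, 0.0821 and 0.135 CPM in Pcl1-3 + Jarid2 KO. Its log2 fold change was -3.67 ± 0.65 (SE; edgeR adjusted p = 0.00117), from 83 to 5 counts, and the libraries did not overlap.

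ENSMUSG00000026656.15 had 6.73, 9.95 and 10.7 CPM in WT, 2.12, 5.49 and 2.67 CPM in Pcl1-3 KO and 0.359, 0.575 and 0.338 CPM in Pcl1-3 + Jarid2 KO. The log2 fold change was -3.02 ± 0.46 (SE; edgeR adjusted p = 0.000251). The 2 IDs had means of 0.120 and 0.562 CPM in Pcl1-3 + Jarid2 + Aebp2 KO, which the rule also held low.

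Among those that rose with Jarid2 loss, ENSMUSG00000054727.2 went from 0, 0.0712 and 0.176 CPM in Pcl1-3 KO to 0.718, 1.40 and 2.64 CPM in Pcl1-3 + Jarid2 KO. That was 6 counts against 66, a log2 fold change of 3.76 ± 0.70 (SE; edgeR adjusted p = 0.00179). Its fitted rise with Epop loss, given above, starts from the same Pcl1-3 KO libraries. A shift of those libraries and an effect of either loss cannot be told apart. ENSMUSG00000031101.6, at 12.4, 8.47 and 8.12 CPM in WT, went from 0.354, 0.356 and 0.844 CPM to 2.37, 2.87 and 5.75 CPM, a log2 fold change of 2.65 ± 0.52 (SE; edgeR adjusted p = 0.00291). Neither reached the WT libraries, and the rule held both at or below 0.5 times WT in these genotypes.

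**Figure D4:**
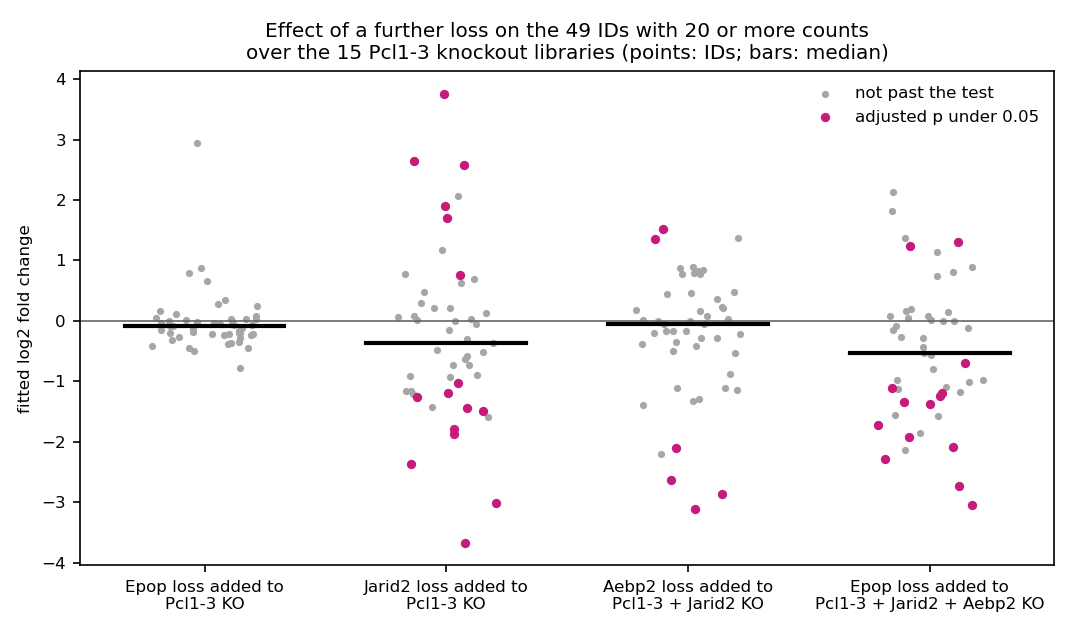
Fitted log2 fold change of the 49 IDs with 20 or more counts over the 15 Pcl1-3 knockout libraries (points) in the 4 comparisons that add a further loss, with the median as a bar and IDs past edgeR's test in colour; 4 IDs with fewer counts are left out. No point passes for Epop loss added to Pcl1-3 KO, while Jarid2 loss has coloured points on both sides of 0 and the second Epop loss mostly below it. The rule limits rises in each comparison.

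Removing Aebp2 as well changed fewer. Of the 53, 4 fell and 2 rose between Pcl1-3 + Jarid2 KO and Pcl1-3 + Jarid2 + Aebp2 KO, beside 0.560% and 0.341% of all IDs tested and 0.901% in either direction (edgeR quasi-likelihood test, adjusted p under 0.05). With the replicate number as a block 6 fell and 3 rose, with no share of all IDs given for that fit. ENSMUSG00000086454.7 had 46.5, 47.5 and 34.3 CPM in WT and 9.76, 10.6 and 15.1 CPM in Pcl1-3 + Jarid2 KO, and only 0.831, 1.39 and 2.69 CPM in Pcl1-3 + Jarid2 + Aebp2 KO. Its log2 fold change was -2.86 ± 0.32 (SE; edgeR adjusted p = 4.41e-05), and it passed under all 11 alternatives run for it. Without the block, the total of 6 in either direction rested on few libraries. It was 3 without Pcl1-3 + Jarid2 KO replicate 2 and 1 without replicate 3 of the same genotype. It was also 1 without replicate 1 or 2 of Pcl1-3 + Jarid2 + Aebp2 KO.

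ENSMUSG00000054727.2, which had risen with Jarid2 loss, was back at 0.0692, 0.209 and 0.252 CPM without Aebp2, a log2 fold change of -3.11 ± 0.69 (SE; edgeR adjusted p = 0.0281). Over its 11 alternatives the adjusted p ran from 6.35e-08 to 0.264, and 6 ended the call. They included leaving out Pcl1-3 + Jarid2 KO replicate 2 (0.0617) or 3 (0.264), or Pcl1-3 + Jarid2 + Aebp2 KO replicate 1 (0.215), 2 (0.115) or 3 (0.0658).

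The 2 IDs that rose without Aebp2, by the fit without the block, follow. ENSMUSG00000022754.6 had 1.77, 2.07 and 1.90 CPM in Pcl1-3 KO, 0.431, 0.821 and 0.338 CPM in Pcl1-3 + Jarid2 KO and 1.45, 1.95 and 1.01 CPM in Pcl1-3 + Jarid2 + Aebp2 KO. Its rise was 1.53 ± 0.34 on the log2 scale (SE; edgeR adjusted p = 0.0311, from 0.0155 to 0.264 over 11 alternatives). Leaving out Pcl1-3 + Jarid2 KO replicate 1 (0.121) or 3 (0.264), or Pcl1-3 + Jarid2 + Aebp2 KO replicate 1 (0.13) or 2 (0.207), ended the call.

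ENSMUSG00000021728.8 had 39.2, 20.8 and 21.7 CPM in Pcl1-3 KO, 10.98, 7.88 and 4.73 CPM in Pcl1-3 + Jarid2 KO and 24.2, 18.3 and 16.6 CPM in Pcl1-3 + Jarid2 + Aebp2 KO. Its rise was 1.36 ± 0.29 on the log2 scale (SE; edgeR adjusted p = 0.0248, from 3.22e-11 to 0.192 over 11 alternatives). Leaving out Pcl1-3 + Jarid2 KO replicate 2 (0.0993) or 3 (0.192), or Pcl1-3 + Jarid2 + Aebp2 KO replicate 1 (0.187) or 2 (0.0704), ended the call.

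The other 2 that fell without Aebp2, named here after their values were seen, had values in both comparisons that rest on the shared Pcl1-3 + Jarid2 KO libraries. ENSMUSG00000031101.6, at 2.65 with Jarid2 loss, had a log2 fold change of -2.63 ± 0.54 with Aebp2 loss (SE; edgeR adjusted p = 0.0187). ENSMUSG00000025038.7 had 1.89 ± 0.43 with Jarid2 loss and -2.10 ± 0.47 with Aebp2 loss (SE; edgeR adjusted p = 0.0096 and 0.0307). Its shared libraries read 1.36, 2.38 and 1.89 CPM, above the 3 Pcl1-3 KO libraries at 0.0885 to 0.844 CPM and the 3 Pcl1-3 + Jarid2 + Aebp2 KO libraries at 0.279 to 0.673 CPM.

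The last comparison removed Epop from the Pcl1-3 + Jarid2 + Aebp2 KO background, where the bound again limits rises and not falls. Of the 53, 12 fell and 2 rose, beside 5.45% and 5.79% of all IDs tested and 11.2% in either direction (edgeR quasi-likelihood test, adjusted p under 0.05). With the replicate number as a block 15 fell and 4 rose, with no share of all IDs given for that fit. The median log2 fold change was -0.44, without the block, against 0.00 for all IDs tested. The total of 14 was 9 without Pcl1-3 + Jarid2 + Aebp2 KO replicate 1, 8 without its replicate 2, 8 without full accessory knockout replicate 2 and 7 without its replicate 3. ENSMUSG00000039269.5 had 21.7, 11.8 and 18.9 CPM in WT, 9.62, 5.15 and 7.82 CPM in Pcl1-3 + Jarid2 + Aebp2 KO and 0.698, 1.32 and 1.26 CPM in the full accessory knockout. The last group did not overlap the others, and the log2 fold change was -2.74 ± 0.38 (SE; edgeR adjusted p = 5.09e-05).

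ENSMUSG00000052955.5 went from 0.969, 1.32 and 1.35 CPM to 0.349, 0 and 0.0788 CPM, which was 49 counts against 5. The log2 fold change was -3.05 ± 0.76 (SE; edgeR adjusted p = 0.0104, from 3.02e-05 to 0.0561 over 11 alternatives). The call ended without full accessory knockout replicate 2 (0.0559) or 3 (0.0561). The ID with the most counts in WT, ENSMUSG00000030246.11, was also among the 12, at -1.38 ± 0.26 on the log2 scale (SE; edgeR adjusted p = 0.000983).

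The 2 that rose stayed under WT, as the rule requires. ENSMUSG00000086454.7 went from the 0.831, 1.39 and 2.69 CPM given above to 3.67, 3.12 and 4.89 CPM, a log2 fold change of 1.31 ± 0.35 (SE; edgeR adjusted p = 0.0157, from 1.94e-05 to 0.103 over 11 alternatives). It lost the call without Pcl1-3 + Jarid2 + Aebp2 KO replicate 1 (0.102) or 2 (0.0639) or full accessory knockout replicate 3 (0.103).

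ENSMUSG00000058147.1, at 9.67, 10.1 and 7.34 CPM in WT, went from 0.623, 1.25 and 1.35 CPM to 2.10, 2.18 and 3.15 CPM. The log2 fold change was 1.24 ± 0.37 (SE; edgeR adjusted p = 0.0338, from 0.00651 to 0.178 over 11 alternatives), with no call without Pcl1-3 + Jarid2 + Aebp2 KO replicate 1 (0.167) or 2 (0.0563) or full accessory knockout replicate 3 (0.178). In Suz12 KO the same ID stood above WT, at 15.3, 13.8 and 15.8 CPM, which did not pass the test there without the block.

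Of the 12 that fell with the second Epop loss, 9 were among the 21 that were lower in Suz12 KO, 3 among the 23 that did not pass there and 0 among the 9 that were higher. The 9 are 75% of the 12 and 42.9% of the 21. Over all IDs tested, those lower in both were 44.7% of the IDs that fell with the second Epop loss and 13.3% of those lower in Suz12 KO, and the overlap was not tested. Of the 10 that fell when Jarid2 was removed from Pcl1-3 KO, 4 fell again when Epop was removed from Pcl1-3 + Jarid2 + Aebp2 KO. Over all IDs tested this held for 109 of 375, or 29.1%.

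The effect of Epop loss could be compared in both backgrounds, with and without JARID2 and AEBP2, by an interaction term added after the calls above were known. It passed for 3 of the 53, all lower, and for 8 with the replicate number as a block (edgeR quasi-likelihood test, adjusted p under 0.05). Of all IDs tested, 1.07% were lower, 1.02% higher and 2.09% passed in either direction, without the block. The bound limits rises in these genotypes, so nothing is read from the direction. ENSMUSG00000039269.5 moved by -0.12 ± 0.33 with Epop loss in the Pcl1-3 KO background, from 6.19, 4.13 and 6.12 CPM to 4.97, 3.17 and 7.13 CPM. The difference from its fall of -2.74 was -2.62 ± 0.50 on the log2 scale (SE; edgeR adjusted p = 0.00587), and it passed in all 17 alternatives.

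ENSMUSG00000022754.6 moved by 0.24 ± 0.28 in the Pcl1-3 KO background, to 2.71, 2.45 and 1.63 CPM, and by -1.93 ± 0.37 in the other, to 0.262, 0.312 and 0.552 CPM. The difference was -2.17 ± 0.46 (SE; edgeR adjusted p = 0.014, from 0.00591 to 0.106 over 17 alternatives), and it did not pass without full accessory knockout replicate 2 (0.0518).

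ENSMUSG00000075023.11 moved by 0.17 ± 0.28 in the Pcl1-3 KO background, to 16.4, 29.5 and 23.4 CPM. In the other it moved by -1.72 ± 0.31, from 14.4, 20.7 and 19.1 CPM to the 3 values of the full accessory knockout given above. The difference was -1.89 ± 0.42 (SE; edgeR adjusted p = 0.0179, from 2.57e-10 to 0.149 over 17 alternatives). It did not pass without Pcl1-3 + Epop KO replicate 2 (0.0564), Pcl1-3 + Jarid2 + Aebp2 KO replicate 2 (0.0527) or full accessory knockout replicate 3 (0.0597). In the 3 IDs, then, Pcl1-3 KO with and without Epop overlapped, and the full accessory knockout lay below all libraries of the other 4 Pcl1-3 genotypes except where ENSMUSG00000022754.6 overlapped Pcl1-3 + Jarid2 KO.

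**Figure D5:**
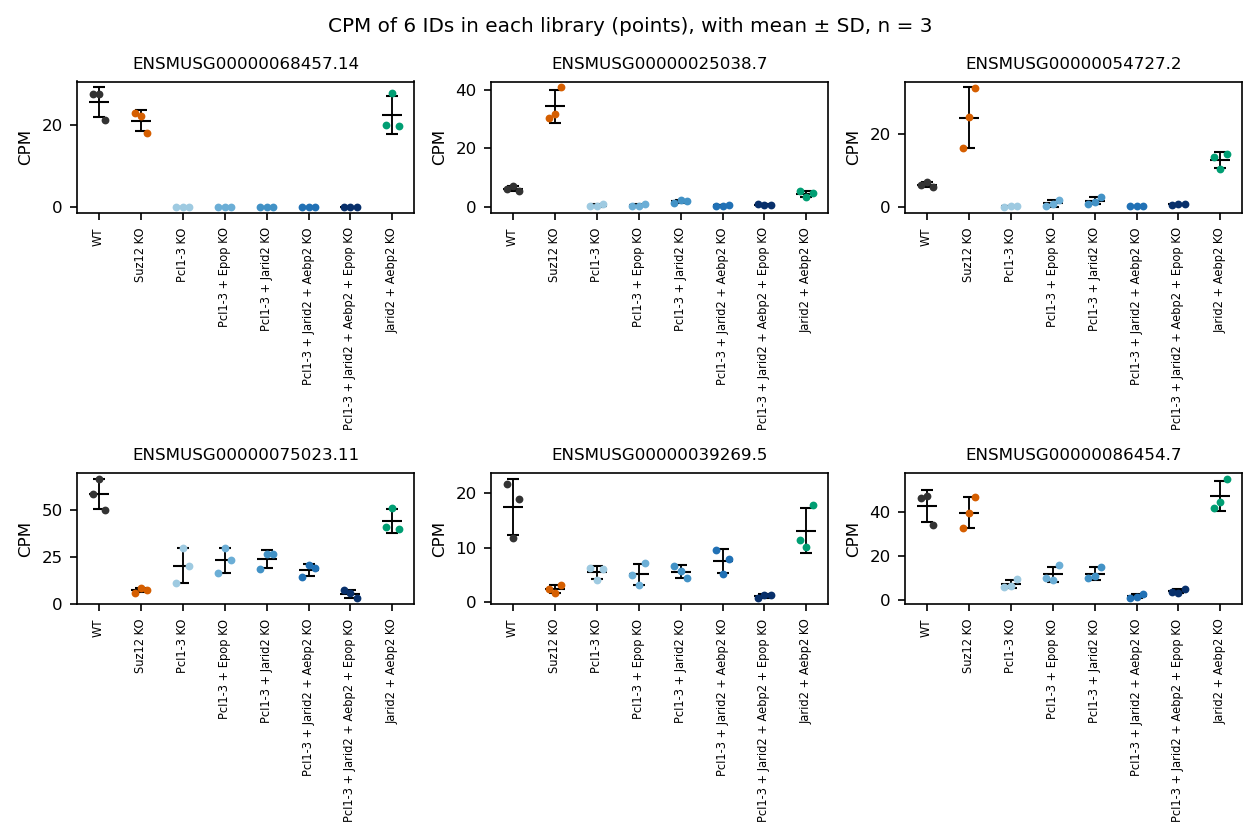
CPM of 6 IDs in each library of the 8 genotypes (points), with mean and SD (n = 3); each panel has its own linear axis from about 0. ENSMUSG00000068457.14 is at 0 in all Pcl1-3 genotypes, ENSMUSG00000025038.7 and ENSMUSG00000054727.2 are above WT in Suz12 KO, ENSMUSG00000075023.11 and ENSMUSG00000039269.5 are low in Suz12 KO and lower in the full accessory knockout than in the other 4 Pcl1-3 genotypes, and ENSMUSG00000086454.7 is lowest in Pcl1-3 + Jarid2 + Aebp2 KO.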

How the data were processed

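RNA was counted in 24 libraries, 3 per genotype. For each library the authors deposited 1 file of raw read counts, whole numbers by Ensembl ID; STAR, HTSeq and mm10 are named per the submitters' processing notes, while their versions, the annotation and the strand setting are not stated there, so overlapping and antisense genes and near-identical copies are uncertain. CPM used each file's total. Counts were fitted with edgeR 4.0.16 in R 4.3.3 (filterByExpr, TMM, 1 mean per genotype over the 24 libraries, robust quasi-likelihood test, Benjamini-Hochberg adjustment over 14650 IDs, adjusted p under 0.05), and the script was tested on simulated data. Fold changes are on this TMM scale. Alternatives included DESeq2 1.42.0, RLE factors, no filter and the replicate block.

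Same-numbered libraries deviated from their genotype means together: in each planned comparison all 3 pairs had a correlation over 0.1 (from 0.15 to 0.71), and 24 of 24 libraries were closest to their own number. The pairing comes from this check, not from the labels. The SE, adjusted p and left-out-library results given for single IDs come from the fit without the block, which ignores this pairing. An ID said not to pass, or to lose its call, did so in that fit. Leaving out a library was not run with the block. No member past the test without the block lost its call with it.

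The members and lists were chosen with earlier results of these data known. At most 2 IDs were named for each part of the naming rule: most counts in WT, lowest highest ratio in the Pcl1-3 genotypes, lowest and highest Suz12 KO ratio, and largest change each way in a further loss. Gene lists, peaks near members and chromosomes were planned and not run, since IDs had no symbols or positions.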

Additional observations from a re-analysis of the deposited data

Results flagged for a closer look

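The effect of Epop loss differed between the Pcl1-3 KO and the Pcl1-3 + Jarid2 + Aebp2 KO backgrounds, by an interaction term in edgeR's quasi-likelihood test, for 3 of the 53 IDs, beside 2.09% of all IDs tested. The term was added after the planned calls were known, and 1 of the 3, ENSMUSG00000039269.5, passed with only the 4 genotypes fitted. ENSMUSG00000022754.6 lost the call in 2 and ENSMUSG00000075023.11 in 4 of 17 alternatives. The difference on the log2 scale was -2.62 for ENSMUSG00000039269.5, -2.17 for ENSMUSG00000022754.6 and -1.89 for ENSMUSG00000075023.11. Each fell where Jarid2 and Aebp2 were also missing. In the Pcl1-3 KO background they moved by -0.12, 0.24 and 0.17, in the same order, and none passed the test there.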

How the results depend on the processing

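The rule gave 24 IDs at a bound of 0.4 times WT, 79 at 0.6, 52 with TMM scaling, and 46 to 57 with a library left out. With a library left out, the IDs past the test numbered 16 to 21 lower and 6 to 9 higher in Suz12 KO, 0 to 0 for Epop loss in Pcl1-3 KO, 12 to 17 for Jarid2 loss, 1 to 5 for Aebp2 loss, 7 to 14 for the second Epop loss and 2 to 6 for the difference between the Epop effects. With only the genotypes compared in the fit, these were 1 for Aebp2 loss, 9 for the second Epop loss and 1 for the difference. Without a filter on low counts, Epop loss in Pcl1-3 KO gave 1 and the difference 9, and DESeq2 gave 7 for the difference. With the replicate block, the pairing by number, the difference gave 8, the IDs that rose with the second Epop loss went from 2 to 4, and those not past in Suz12 KO from 23 to 14. No share of all IDs is given for the fit with the block. The other counts of IDs past the test moved by at most 1.5 times. The cause was not tested. For the named IDs, 198 of the alternative results kept their call, 33 lost it and none reversed. Alternatives on peaks were not run. IDs with few counts in the Pcl1-3 knockouts are limited by depth.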
